A study of Saccharomyces cerevisiae YPS1009 with 8 samples.

Results

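Ribosome footprints were followed on 47 genes for proteins of the large (60S) ribosomal subunit in wild yeast with and without an extra chromosome XII, in log phase and at day 4 of culture. The genes were taken by name, by a rule that uses no measured value: 10 RPL genes with a single copy, the A copy of 32 duplicated RPL genes, and 5 genes of the P-stalk (RPP0, RPP1A, RPP1B, RPP2A and RPP2B), with RPL40 left out. All 47 were found among the 6532 genes in the count tables, and all 47 passed the filter on low counts. A gene's count was the sum of reads over its row, which runs from 72 nt before the ATG past the stop codon and includes introns, so genes with introns were kept.

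The study asked whether ribosome occupancy differs between aneuploid and euploid cells as cultures leave exponential growth. The euploid and the aneuploid (Chr12, 1 additional copy of chromosome XII) were haploids of the wild strain YPS1009, grown in YPD medium at 30 °C from an OD of 0.05. Log phase cells were taken after 3 generations and the others at day 4, each in 2 biological replicates, which gave 4 groups and 8 libraries. The study's strain table lists both strains as MATa ho-Δ1 with a NatMX marker between genes on chromosome XII. It lists Chr12 also as his3-Δ with a His3MX6 marker at that site.

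Ribosomal protein genes are among the most heavily translated genes of a growing yeast cell, and their transcription is known to be driven by Rap1, Fhl1, Ifh1 and Sfp1 under the TOR and PKA nutrient pathways and to be shut down when nutrients run out. Most RPL genes exist as a pair of paralogs, called A and B, that encode identical or nearly identical proteins, and a minority exist as single copies. The 60S subunit holds the peptidyl transferase centre and the exit tunnel, and its P-stalk, built on RPP0 with acidic P1 and P2 proteins, recruits the GTPases of translation.

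Read totals ranged from 1455008 to 2354495 in log phase, while at day 4 replicate 1 was shallow in both strains (211277 reads in the euploid and 396218 in Chr12) beside replicate 2 (6215467 and 2224762). Each member had at least 592 reads in every log phase library, but in replicate 1 of the day 4 euploid the members had 15 to 742 reads and 28 of the 47 had fewer than 50. Reads on genes of stationary phase (HSP12, HSP26, SNZ1, SPG4 and YGP1) made up 0.00639% of a log phase library or less, and 2.58% and 4.13% of the day 4 euploid libraries against 0.907% and 0.950% of those of Chr12. Over all chromosome XII genes tested the median log2 fold change of Chr12 against the euploid was 0.69 in log phase and 0.67 at day 4, beside -0.03 and -0.14 for genes on other chromosomes. HIS3 was not absent from Chr12: it had 87 and 75 reads in log phase there, beside 75 and 36 in the euploid. Values are relative to each library, so fewer cells and less RNA or fewer ribosomes per cell cannot be told apart. Intervals given here cover counting error within 1 library only. They are too narrow where repeated copies of a molecule were counted as separate reads.

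The 47 genes held 13.7% and 13.6% of all reads in the euploid log phase libraries (replicates 1 and 2) and 11.98% and 12.75% in those of Chr12. At day 4 they held 1.54% and 1.57% in the euploid and 2.80% and 3.05% in Chr12. The exact 95% binomial intervals ran from 1.48% to 1.59% for the shallowest library and from 2.75% to 2.86% for replicate 1 of Chr12 at day 4. The group means fell 8.79-fold in the euploid and 4.22-fold in Chr12. The day 4 share in Chr12 was 1.83 times that of the euploid in replicate 1 and 1.94 times in replicate 2, and the 4 libraries did not overlap, whereas in log phase the same ratio was 0.873 and 0.937. With 2 libraries against 2, an exact two-sided permutation test cannot give a p below 0.33. The summed share of the stationary phase genes was lower in Chr12 at day 4 (above), and its part in the difference was not tested. YGP1 went against the other 4 of these genes: it had 15.02 and 42.4 CPM (counts scaled to library size with TMM factors) in the day 4 euploid, beside 24.3 and 31.3 in euploid log phase, and 77.7 and 250.5 in day 4 Chr12. The other 4 had lower means in day 4 Chr12, but SNZ1 and HSP26 overlapped between the strains. SNZ1 had 1991 and 689 CPM in the day 4 euploid and 721 and 1228 in Chr12. HSP26 had 3970 and 31398 against 1625 and 3998. It held 194643 of the 256578 reads on these genes in day 4 euploid replicate 2.

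**Figure D1:**
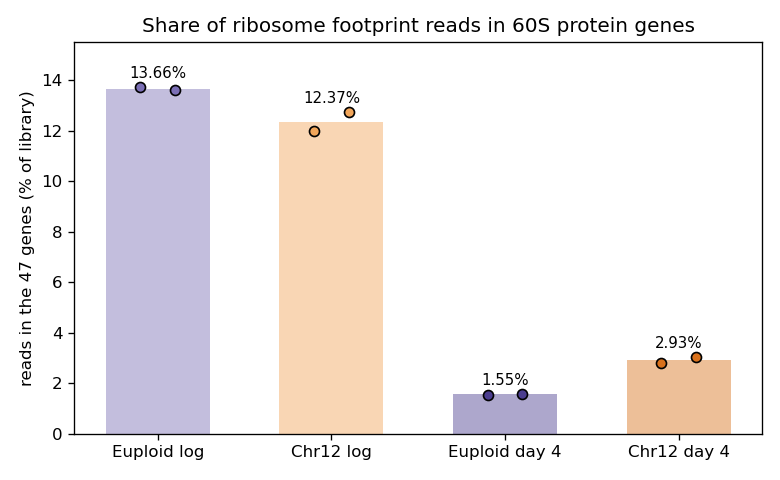
Share of each library's reads that fell in the 47 genes for 60S proteins, in percent, by group; bars are means and points the 2 libraries of a group. The mean goes from 13.66% to 1.56% in the euploid and from 12.37% to 2.93% in Chr12, and the Chr12 points lie above the euploid points at day 4 only.

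In each subgroup the share was lower at day 4 than in log phase in all libraries, and higher in Chr12 than in the euploid at day 4. In log phase the single copies and the P-stalk overlapped between the strains. The single copies held 3.03% ± 0.0991 (SD, n = 2) of reads in euploid log phase and 0.390% ± 0.0729 (SD, n = 2) at day 4, against 2.99% ± 0.0738 (SD, n = 2) and 0.920% ± 0.0976 (SD, n = 2) in Chr12. The P-stalk genes held 1.82% ± 0.117 (SD, n = 2) and 0.137% ± 0.0136 (SD, n = 2) in the euploid, and 1.73% ± 0.298 (SD, n = 2) and 0.292% ± 0.00711 (SD, n = 2) in Chr12. The A copies held 8.82% ± 0.0930 (SD, n = 2) and 1.03% ± 0.0592 (SD, n = 2) in the euploid, and 7.65% ± 0.173 (SD, n = 2) and 1.72% ± 0.0840 (SD, n = 2) in Chr12.

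The level of the members per length was compared as CPM per kb of covered coding sequence. Uncovered stretches of at least 60 nt, found in 31 members, were taken out of the length, and 16 members had none. In euploid log phase the median member stood at 5268 on this scale, and the middle part of the list ran from 3432 to 7822. These are levels of single genes, so that an A copy stands for only part of its pair. The lowest were the A copies RPL26A (1850) and RPL4A (1932), and RPL41A was far above all others at 273966 over a coding span of 78 nt. RPL41A encodes the smallest protein of the ribosome, its reads all lie near a start or stop codon, and it shares reads with its near-identical partner RPL41B, so this level is not comparable with the rest. After RPL41A came RPP2A (15924), the acidic stalk protein P2, and RPL15A (15904), an essential protein of the subunit core. With A and B copies summed, the lowest was RPL30 (2756) and the next below the RPL41 pair was the RPL34 pair (22685). At day 4 the order of single genes below RPL41A was led by RPL10, at 1562 in the euploid and 3935 in Chr12, beside medians of 416 and 831. RPL10 joins the subunit as one of the last proteins, in the cytoplasm.

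From log phase to day 4 the members fell as a block in the euploid. All 47 were called lower (edgeR quasi-likelihood, FDR under 0.05), beside 11.6% of the 5794 genes tested. For all 47 the day 4 libraries lay below the log phase libraries, and the share of all genes ordered this way was not taken. Within both replicates all 47 were negative, beside 1740 of the 5794 genes. The median log2 fold change was -3.57, an 11.9-fold lower level, beside a median of 0.39 over all genes tested, a distance of -3.97. Without TMM scaling the median of all genes moved to 0.75 and that of the members to -3.21, and the distance was again -3.97. The member medians within replicate 1 and replicate 2 were -3.88 and -3.30.

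In Chr12 45 of the 47 members were called lower, beside 9.67% of all genes tested. Again for all 47 the day 4 libraries lay below those of log phase, with no share over all genes taken. The median log2 fold change was -2.75, a 6.71-fold lower level, beside 0.25 over all genes. The exceptions were RPL10, at -1.55 ± 0.562 (SE, FDR = 0.0851), and RPL38, at -1.70 ± 0.551 (SE, FDR = 0.0596), which both lie on chromosome XII, and DESeq2 called both lower. With the replicate number as a block, RPL10 was called lower (-1.52, FDR = 0.0177) and RPL38 was not (-1.70, FDR = 0.0505). The count of 45 did not hold when any 1 library of Chr12 was left out, which leaves a group with 1 library. Far fewer members were then called lower in Chr12, and far fewer of all genes tested. The member median in Chr12 stayed between -3.07 and -2.64 when any 1 library was taken out. In the euploid it ran from -4.13 to -3.35.

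**Figure D2:**
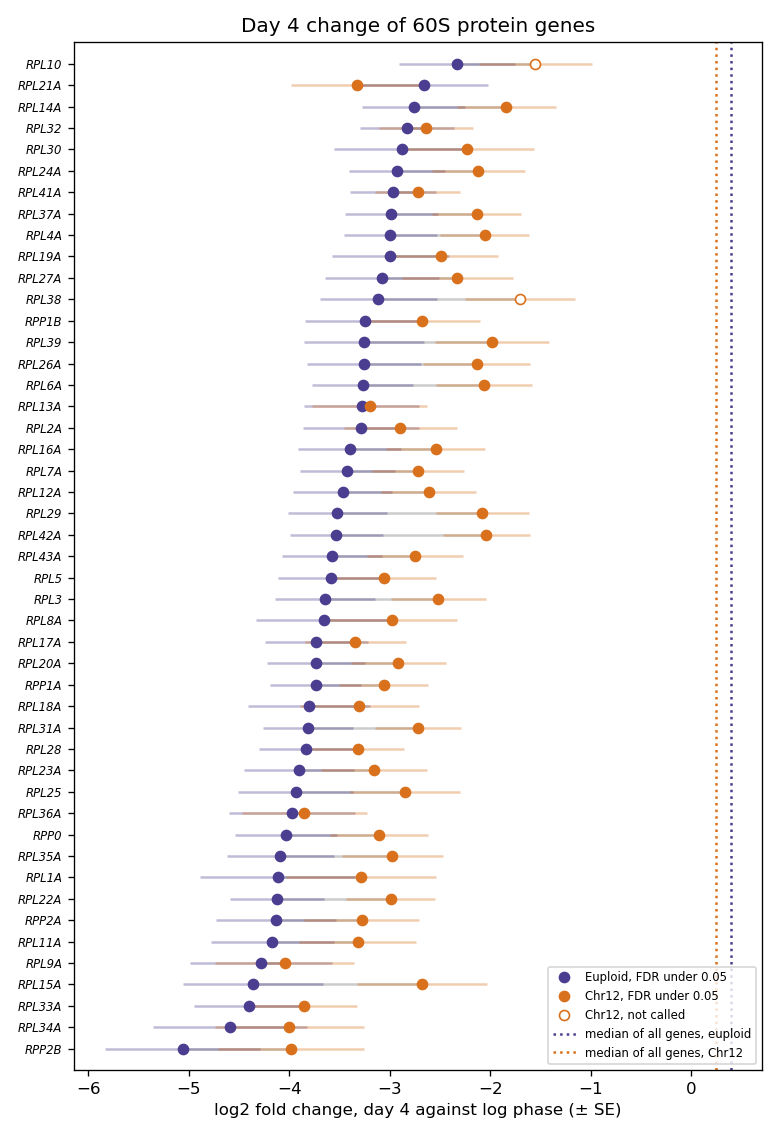
Log2 fold change from log phase to day 4 (± SE) for each of the 47 genes, euploid in purple and Chr12 in orange, ordered by the euploid value; open circles did not pass an FDR of 0.05 and dotted lines mark the median of all genes tested. All 94 values lie below 0, and the Chr12 value is the smaller fall for 46 of 47 genes, RPL21A being the exception.

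The 5 P-stalk genes were called lower in both strains, with medians of -4.04 in the euploid and -3.10 in Chr12. RPP2B (YDR382W), a P2 protein, had the largest fall of all members in the euploid: its log phase libraries had CPM values of 2716 and 5643, and those of day 4 had 86.4 and 161. Its log2 fold change was -5.06 ± 0.770 (SE, FDR = 0.00347). In Chr12 it went from 2429 and 6920 to 246 and 344, a change of -3.98 ± 0.730 (SE, FDR = 0.00879). RPP0 (YLR340W), the stalk base, which lies on chromosome XII, stood at 6373 and 8169 in euploid log phase and at 372 and 513 at day 4. In Chr12 it stood at 5635 and 9405 and then at 826 and 923. The log2 fold changes of RPP2A, RPP1A and RPP1B were -4.13, -3.74 and -3.25 in the euploid and -3.28, -3.06 and -2.68 in Chr12. As for the members as a whole, no P-stalk gene had overlapping log phase and day 4 libraries in either strain. The share of all genes ordered this way was not taken, so this adds nothing particular to the P-stalk.

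The 10 single-copy genes, for which no paralog can share reads, had a median of -3.39 in the euploid and -2.37 in Chr12, and 10 and 8 of them were called lower. RPL25 (YOL127W), which sits at the exit tunnel and docks factors for the nascent chain, had CPM values of 4171 and 2314 in euploid log phase cells and of 143 and 277 by day 4, and fell by 3.94 on the log2 scale. RPL28, a core protein, changed by -3.84 in the euploid and by -3.32 in Chr12, the largest single-copy fall in that strain. RPL3 (YOR063W), which reaches toward the peptidyl transferase centre, went from 10215 and 9547 to 560 and 1013 in the euploid and from 8951 and 10106 to 1432 and 1903 in Chr12. RPL5, which binds the 5S rRNA, changed by -3.58 in the euploid and -3.06 in Chr12, and RPL29 by -3.52 and -2.08. RPL39, a small protein of the tunnel wall, changed by -3.26 in the euploid and -1.98 in Chr12, and RPL32 by -2.83 and -2.64. RPL30, which is known to bind its own transcript and block splicing, changed by -2.88 and -2.23.

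RPL10 (YLR075W) had the smallest fall of all members in both strains. Its CPM values were 4385 and 6205 in euploid log phase, 676 and 1421 in euploid day 4, 5473 and 9964 in Chr12 log phase and 2065 and 3200 in Chr12 day 4. The euploid change was -2.33 ± 0.578 (SE, FDR = 0.0201). It lost its call in the euploid without log phase replicate 1, without log phase replicate 2, without day 4 replicate 1 of that strain, and when each position counted 1 read at most.

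Among the A copies, all 32 were called lower in both strains, with medians of -3.55 and -2.82. RPL34A went from 4432 and 1555 CPM to 169 and 83.6 in the euploid, a log2 fold change of -4.59 ± 0.768 (SE, FDR = 0.00474), and changed by -4.00 in Chr12. RPL33A changed by -4.40 and -3.85 and RPL15A by -4.36 and -2.68. RPL9A, whose protein lies near the GTPase centre, had the largest fall of any member in Chr12 (-4.05 ± 0.693, SE, FDR = 0.00708), and its log phase libraries read 1893 and 1190 and its day 4 libraries 88.6 and 97.6. RPL36A changed by -3.85 ± 0.622 (SE, FDR = 0.00622) in Chr12. At the other end, RPL14A changed by -2.76 and -1.84, and the Chr12 values of RPL42A, RPL4A and RPL6A were -2.04, -2.05 and -2.06.

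RPL21A (YBR191W) stood apart from the others through reads before its start codon. It had 186 reads in replicate 1 of the day 4 euploid, of which 170 lay before the ATG and 16 did not, whereas in replicate 2 0 of 1345 did. These leader reads made up 8.69% and 6.72% of its reads in log phase replicate 1 of the euploid and Chr12, and the median member had 0.0527% or fewer of its reads there in any library. With these reads counted, its euploid change was -2.66 ± 0.633 (SE, FDR = 0.0173), and it was the only member with a negative value for Chr12 against the euploid at day 4 (-0.83). With coding reads only that value was 0.84.

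Between the strains in log phase no member was called. edgeR called 0 of 47 members and 0% of all 5794 genes, no member had an unadjusted p under 0.05, and DESeq2 called 0 members. The median log2 fold change of Chr12 against the euploid was -0.06, beside -0.00 over all genes, with -0.18 in replicate 1 and 0.08 in replicate 2. For 1 of the 47 (RPL6A) both Chr12 libraries lay below both euploid libraries, beside 15.2% of all genes tested. The members on other chromosomes had a median of -0.09 and ran from -0.57 (RPL8A) to 0.16.

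The 7 members on chromosome XII had a higher median than the rest, though RPL15A and RPP0 lay within the range of the other members. The median was 0.54 in log phase, 0.63 above that of the other members. Over all genes tested the medians were 0.69 for the 499 on chromosome XII and -0.03 for those on other chromosomes. The higher values were those of RPL26A, 0.79 ± 0.517 (SE), RPL38, 0.75 ± 0.538 (SE), RPL37A, 0.74 ± 0.429 (SE) and RPL10, 0.54 ± 0.551 (SE). The values near 0 were those of RPL22A at 0.21 ± 0.411 (SE), RPP0 at 0.05 ± 0.450 (SE) and RPL15A at -0.00 ± 0.605 (SE). The ranges of 1 SE around the highest and the lowest of these values overlap, and none of the 7 was called (FDR = 1 for each). RPL26A (YLR344W), a protein near the tunnel exit, had 601 and 832 CPM in the euploid and 1011 and 1475 in Chr12. RPL15A (YLR029C) had 10073 and 9516 against 8526 and 11047, and its libraries overlapped. The distance between the chromosome XII members and the others was smaller, at 0.40, when the reads of A and B copies were summed, and it ran from 0.27 to 0.63 when 1 library was left out.

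At day 4 nearly all members had higher values in Chr12, but none passed the test. edgeR called 0 of 47 members, beside 0.069% of all genes called higher. An unadjusted edgeR p under 0.05 was reached by 10 members, beside 8.65% of all genes. Of these 10, 6 were among the 7 members on chromosome XII and 4 among the 40 on other chromosomes. Over all genes tested this share was also higher on chromosome XII than on the others, so the 10 do not describe the members in general. DESeq2 called 3 members higher, beside 1.75% of the 3660 genes it gave an adjusted p. All 3 lie on chromosome XII: RPL38 (FDR = 0.0194), RPL37A (FDR = 0.0336) and RPL26A (FDR = 0.0429). The median log2 fold change was 0.71, a 1.64-fold higher level, beside -0.09 over all genes, and the log2 fold change was positive for 46 of 47. It was 0.78 within replicate 1 and 0.74 within replicate 2, and 40 members were positive within both. For 33 of the 47 both Chr12 libraries lay above both euploid libraries, beside 16% of all genes. The shallow replicate 1 of the euploid bore on its size: without that library the median was 0.48, and without euploid replicate 2 it was 1.32.

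**Figure D3:**
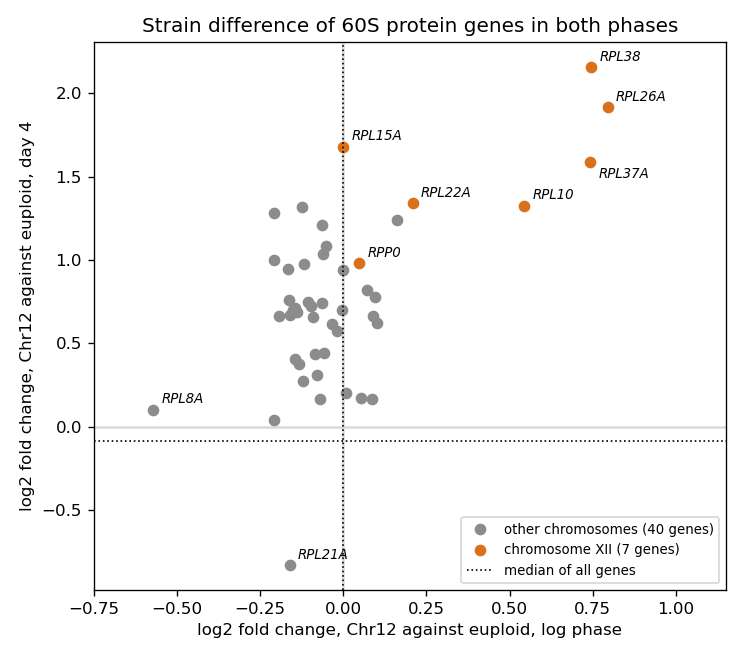
Log2 fold change of Chr12 against the euploid in log phase (horizontal axis) and at day 4 (vertical axis) for the 47 genes, with those on chromosome XII in orange; dotted lines mark the medians of all genes tested. In log phase the genes on other chromosomes run from -0.57 (RPL8A) to 0.16, and at day 4 all genes but RPL21A lie above 0.

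All 7 members on chromosome XII were among the 33 that did not overlap at day 4. Their median was 1.59, a 3.01-fold higher level, against 0.68 for the 40 members on other chromosomes. Over all genes tested the medians were 0.67 on chromosome XII and -0.14 on other chromosomes. RPL38 (YLR325C), a small protein that yeast can lose, had the highest value: 60.1 and 124 CPM in the euploid and 369 and 469 in Chr12, a log2 fold change of 2.16 ± 0.564 (SE, FDR = 0.356). Its count in the shallow euploid library was 16 reads. RPL26A followed at 1.92 ± 0.540 (SE, FDR = 0.398), with 63.9 and 84.4 against 184 and 380. RPL15A was at 1.68 ± 0.623 (SE, FDR = 0.536), with 331 and 621 against 734 and 2322, and its Chr12 libraries differed more from each other than the nearest libraries of the strains did. RPL37A was at 1.59, RPL22A at 1.34, RPL10 at 1.33 and RPP0 at 0.98.

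**Figure D4:**
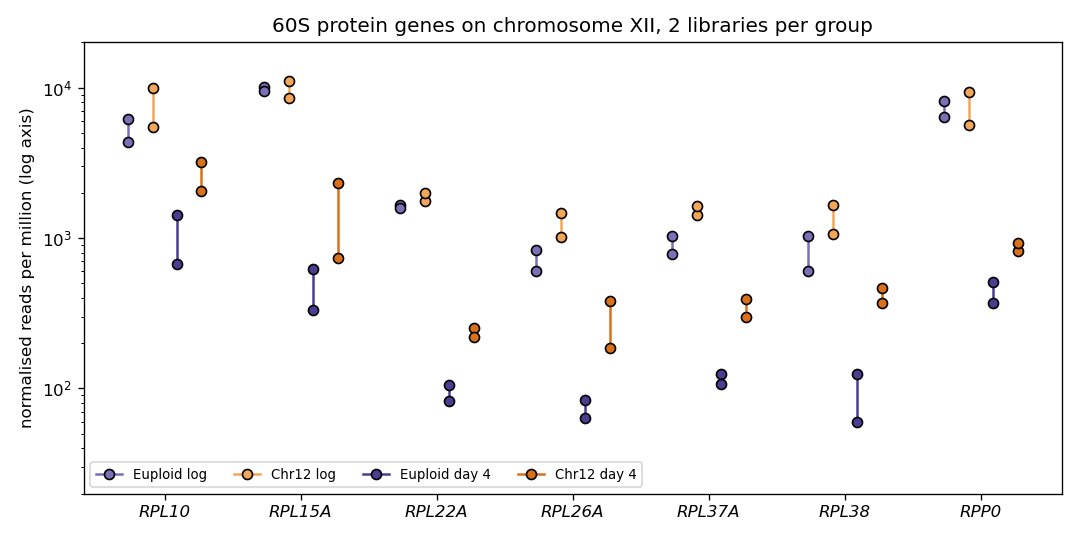
CPM on a log axis for the 7 members on chromosome XII, with the 2 libraries of each group joined by a line. At day 4 both Chr12 libraries lie above both euploid libraries for each gene, while in log phase the groups overlap for RPL10, RPL15A and RPP0.

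The strain difference in the day 4 change was tested as an interaction. edgeR called 0 of 47 members and 0% of all genes, 1 member had an unadjusted p under 0.05 (4.23% of all genes did) and DESeq2 called 0 members, so a smaller fall in Chr12 was not shown for any single gene. The median of the members was 0.82, beside -0.09 over all genes, and was positive for 46 of 47. The highest values were those of RPL15A (1.68 ± 0.863, SE), RPL42A (1.49 ± 0.596, SE), RPL29 (1.45 ± 0.635, SE) and RPL38 (1.41 ± 0.765, SE), each with an FDR of 0.999, and the lowest was that of RPL21A (-0.67 ± 0.843, SE), which was 0.98 with coding reads only. The median ran from 0.56 to 1.29 when 1 library was left out.

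The split of reads between the A and the B copy does not depend on the scaling of a library. It could be taken for 31 of the 32 duplicated genes, since the partner of RPL1A is not analysed here. How reads that match both copies were assigned is not given in the sources used here, so splits between near-identical copies are uncertain. In euploid log phase the A copy held from 34.3% (RPL34A) to 93.8% (RPL22A) of the pair's reads. Averaged over both strains, the median over the pairs was 53.1% in log phase and 51.2% at day 4. The B copies followed the members: 30 of 31 were called lower at day 4 in the euploid and 29 in Chr12, beside 11.6% and 9.67% of all genes. Their medians were -3.43 and -2.60.

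In 7 of the pairs 1 copy lies on chromosome XII. In log phase the share of that copy was higher in Chr12 for all 7, without overlap for 6, by a median of 13 percentage points, whereas the A share of the 24 other pairs differed between the strains by -1.96 to 3.53 points. RPL26A held 38.6% and 39.02% of the reads of its pair in the euploid and 51.8% and 55.2% in Chr12. RPL8B held 60.9% and 53.1% against 79.5% and 71.2%, and the pair RPL31 read 36.3% and 34.1% for RPL31B against 46.7% and 48.3%. The shares of RPL6B and RPL37A were higher by 13.6 and 13 points. RPL15A was the exception, at 91.6% ± 0.679 (SD, n = 2) and 91.7% ± 1.88 (SD, n = 2).

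**Figure D5:**
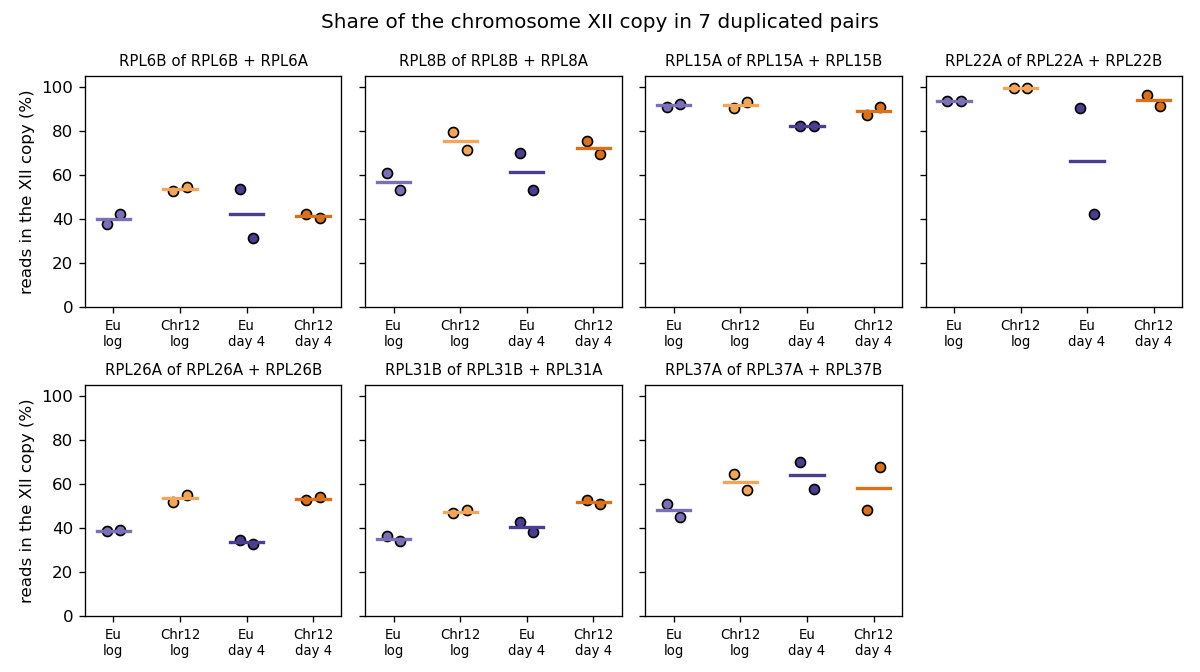
Share of the reads of a duplicated pair that fell in the copy on chromosome XII, in percent, for 7 pairs; points are libraries and lines the group means. In log phase the Chr12 points lie above the euploid points for all pairs except RPL15, and at day 4 the groups overlap for RPL6, RPL8 and RPL37.

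At day 4 the share of the chromosome XII copy was higher in Chr12 for 5 of the 7 pairs and without overlap for 4, while the A share of the other 24 pairs differed by -13.3 to 10.1 points. In the RPL8 pair in log phase, the chromosome XII copy RPL8B had 3254 and 3243 CPM in the euploid and 4498 and 5383 in Chr12 (0.60 ± 0.413, SE, FDR = 1). RPL8A had 2092 and 2862 against 1160 and 2175 (-0.57 ± 0.607, SE, FDR = 1), and both copies together had 5346 and 6105 against 5658 and 7557.

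RPL22B, the partner of the chromosome XII gene RPL22A (YLR061W), was the most uneven of all partners. It had 200 and 132 reads in euploid log phase and 15 and 12 in Chr12, or 110 and 103 CPM against 7.37 and 8.09. Its log2 fold change was -3.78 ± 0.899 (SE), with an unadjusted p of 0.00301 and an FDR of 1. RPL22A had 1669 and 1577 against 1763 and 1987 in the same libraries. At day 4 the euploid libraries held 3 and 691 reads of RPL22B and the Chr12 libraries 5 and 52. In CPM the euploid replicates read 11.3 and 112 and those of Chr12 9.04 and 20.1, and the day 4 value of -2.11 turned to 0.77 without euploid replicate 2. RPL22B was singled out after its values were seen.

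RPL9A and RPL9B exchanged places between the phases. RPL9A held 67.1% to 74.4% of the reads of the pair in the 4 log phase libraries and 18.1% to 40.5% in the 4 day 4 libraries, without overlap. In counts, RPL9A had 3820 and 1442 reads in euploid log phase against 1481 and 707 for RPL9B, and 34 and 272 at day 4 against 50 and 1059. RPL9B fell by 1.94 on the log2 scale in the euploid (FDR = 0.0157) and stood at -0.70 in Chr12 (FDR = 0.296), beside -4.28 and -4.05 for RPL9A. Averaged over both strains, the A share of 5 pairs, RPL9 among them, changed by over 10 points between the phases. The share of RPL33A went from a mean of 71.5% to 55.3% and that of RPL7A from 69.5% to 57.4%. RPL21A went the other way, from 51.9% to 67.7%, with its leader reads counted. RPL22A went from 96.7% to 80.2%, with 42.5% in day 4 euploid replicate 2 and at least 90.3% in every other library.

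Factors that handle 60S proteins before they reach the ribosome, or finish the subunit, were lower at day 4 as well. Of 5 dedicated chaperones, 4 were called lower in the euploid and 5 in Chr12, beside 11.6% and 9.67% of all genes, among them SQT1, the chaperone of the RPL10 protein, at -2.72 (FDR = 0.00771) and -3.15 (FDR = 0.00678), and RRB1, the chaperone of the RPL3 protein, at -3.13 and -2.10. Of 12 late maturation factors, 10 were called lower in the euploid and 9 in Chr12, with medians of -2.06 and -2.15. MRT4, which holds the place of RPP0 on the immature subunit, changed by -4.19 and -2.93, and ARX1, a nuclear export factor, by -4.05 and -3.06. These medians are smaller falls than those of the members (-3.57 and -2.75), and the difference was not tested. In the shallow replicate 1 of the day 4 euploid, MRT4 had 1 read, and ARX1 and SQT1 had 4 each.

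Of 6 regulators of ribosomal protein genes, edgeR called 2 higher at day 4 in the euploid, beside 15.6% of all genes tested, a count too small to read against that share. DESeq2 called the same 2 higher and HMO1 lower (-1.91, FDR = 0.0157), while HMO1 stood at -1.78 with an FDR of 0.0628 in edgeR. CRF1, a corepressor of these genes, was at 4.58 (FDR = 0.0158) and SFP1, an activator, at 1.87 (FDR = 0.0348). The CRF1 value rests on few reads outside 1 library. Euploid log phase replicates 1 and 2 held 5 and 10 CRF1 reads, or 2.76 and 7.83 CPM. Day 4 replicate 1 of that strain held 5 (18.8 CPM), whereas its replicate 2 held 1349 (217.6 CPM). The size of the rise is therefore uncertain. In Chr12 edgeR called 0 of the 6, beside 13.2% of all genes called higher, 2 had an unadjusted p under 0.05 and DESeq2 called 1 (CRF1, FDR = 0.0126), and in edgeR CRF1 was at 3.35 (FDR = 0.0542) and SFP1 at 1.59 (FDR = 0.0631). RAP1, FHL1 and IFH1 were called by neither tool in either strain.

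Positions of reads along the members followed the replicate number more than the strain. In the 15 members without an uncovered stretch and with at least 50 gene-body reads, the median uncentered correlation of codon counts between Chr12 and the euploid was 0.978 in log phase replicate 1 and 0.961 in replicate 2. Between the replicates of a strain it was 0.594 in the euploid and 0.648 in Chr12. At day 4 the strains correlated at 0.552 in replicate 1, over the 7 members with enough reads, and at 0.821 in replicate 2, over 15. Depth differs among these libraries, and the values are a description with no test. Single positions could weigh heavily: 1 position held 64.9% of the reads of RPL1A in euploid log phase replicate 2 and 62.9% in the same replicate of Chr12, and the top position of RPL1A held 13.1% and 12.1% in replicate 1. When each gene's highest position was left out, all 47 members were called lower at day 4 in both strains.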

How the data were processed

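The deposited files hold counts: per the methods, the authors trimmed reads with CutAdapt, removed reads with a poor 5′ base and reads from noncoding RNA, aligned what was left with bowtie2 to a genome of YPS1009, and scored each read's 5′ end at each nucleotide of each gene. Removal of duplicate reads is not described, and replicates were not pooled. The second table of each replicate 1 library, of unstated origin, was an alternative.

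Counts were summed per row. The 4 rows with no systematic gene name (at most 0.0222% of reads) were left out. Names came from the RefSeq R64 gene table, which matched 5821 of 6532 genes, and the chromosome from the systematic name. Counts were tested with edgeR 4.0.16 (R 4.3.3) by a quasi-likelihood F-test on 4 group means over all 8 libraries, with TMM scaling and edgeR's expression filter (5794 genes), adjusted by Benjamini-Hochberg over all genes at an FDR of 0.05. The routine was tested on simulated counts, with changes larger than the median strain differences given here. That test does not show its power for differences of this size. CPM used TMM library sizes. The p-values set a difference against the spread between replicate cultures (2 a group), estimated over the 4 groups together and partly shared across genes.

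The rule for the members uses gene names only, but these genes and the other lists were picked as subjects with earlier results of these data known. The naming rule took the members on chromosome XII, the P-stalk, the single copies, up to 4 members a direction in each comparison, and up to 3 genes of each other list. Alternatives were RLE size factors, library totals, DESeq2 1.42.0, a filter of 1 read, other counted regions, the second tables, a replicate block, summed copies and each library left out. Profiles used a P site 12 nt into the read and left out 60 nt at each end of the coding sequence.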

Additional observations from a re-analysis of the deposited data

Results flagged for a closer look

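The share of reads in the 47 genes differed between the strains in opposite directions in the 2 phases. In log phase both Chr12 libraries lay below both euploid libraries, by 1.30 percentage points between the means (a difference of -1.3), and at day 4 both lay above, by 1.37 points. With TMM scaling the member median in log phase was -0.18 in replicate 1 and 0.08 in replicate 2. For 29 of the 47 members the sign differed between the replicates, so the log phase difference in share is not one of the members in general. The difference between the phases was not tested.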

How the results depend on the processing

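The median of the members at day 4 stayed below 0 under all alternatives run. With all 8 libraries kept, the count called lower in the euploid stayed between 45 and 47. The Chr12 count did not hold without 1 library of that strain (above). Counting 1 read per position, which saturates on heavily read genes, moved the euploid median to -1.40, the Chr12 median to -0.73 and the Chr12 count to 24, and turned RPL41A (to 0.34 and 0.25) and RPL10 in Chr12 (to 0.0756). The Chr12 median was -2.91 with RLE size factors and with DESeq2, -2.09 with library totals, -2.89 over gene bodies, -2.99 with the second tables and -2.68 with copies summed. Leaving out 1 library gave Chr12 medians of -3.07 to -2.64 and euploid medians of -4.13 to -3.35.

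With the replicate block the Chr12 median was -2.83, 47 and 46 members were called lower at day 4 (RPL10 in Chr12 was gained), 0 were called between the strains, and no other call changed. Same-numbered libraries deviated together across genes (correlations of 0.107 to 0.644 over 6 pairs of groups). The correlations were highest between the strains within a phase, at 0.644 in log phase and 0.568 at day 4. The main test of the strains leaves this pairing out. The study compares codon profiles by replicate number, but no source used here ties the numbers to a shared culture day or batch.

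The day 4 strain difference had a median of 0.91 with library totals, 0.75 without each gene's highest position, 0.53 at 1 read per position and 0.77 with copies summed, and of 0.48 to 1.32 when a library was left out; DESeq2 called 3 members. The interaction median was 1.12 with library totals, 0.55 with the second tables and 0.56 to 1.29 without a library. The distance of the chromosome XII members from the others was 0.13 in log phase and 0.42 at day 4 at 1 read per position, 0.40 in log phase with copies summed, and 0.27 to 0.63 and 0.86 to 1.03 without a library.

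Log phase values near 0 turned sign. RPL15A read 0.0356 with RLE factors and DESeq2, 0.0287 over gene bodies, 0.00199 without the highest position, 0.11 with the second tables, and -0.21 to 0.17 without a library. RPP0 read -0.0844 with library totals and -0.0766 at 1 read per position, and -0.37 to 0.37 without a library, RPL22A -0.0403 at 1 read per position, RPL8A and RPL6A 0.21 and 0.17 with copies summed. RPL21A read 0.0146 with the second tables and -0.44 to 0.067 without a library, and RPL41A -0.44 to 0.0754. At day 4 RPL21A read 0.84 over coding sequence, 0.97 over gene bodies, 0.67 at 1 read per position, 0.28 with the second tables and -1.19 to 0.13 without a library, and its interaction value 0.98, 1.105, 0.76, 0.26 and -1.02 to 0.30. Without a library RPL8A ran from -0.54 to 1.32 and RPL22B from -2.90 to 0.77.

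The share in euploid log phase was 13.8% over coding sequence and with the second tables, 13.1% without the highest position, 3.67% at 1 read per position and 20.9% with copies summed. Chr12 log phase gave 3.40% and 18.8% under the last 2. At day 4 the euploid gave 1.65% without the highest position, 1.81% with the second tables, 1.46% and 2.48%, and Chr12 3.15% with the second tables, 1.97% and 4.49%. The median level per length was 7784 with copies summed, and the correlation of day 4 with log phase codon profiles in Chr12 replicate 1 was 0.488 at a minimum of 200 reads.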
